A study of Homo sapiens with 2 samples.

Results

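C19MC is the chromosome 19 microRNA cluster, a long array of related hairpins found in primates. Its members were taken by hairpin name from a table of counts per precursor and mature microRNA: miR-498, miR-512, miR-515 to miR-527, miR-1283 and miR-1323, with every letter and copy. This gave 67 mature names from 46 hairpins, out of 2656 mature names in all, with 1 value per name and library, the highest of its precursor lines. The counts came from MDA-MB-231, a widely used line of human breast cancer cells without hormone receptors or HER2, transduced either with an shRNA against the fatty acid elongase gene ELOVL5 (shELOVL5) or with the control shRNA shLuc. Each condition had 1 library, so both groups carry an shRNA and neither has a replicate. The labels do not say whether either line is a clone, and their extraction text speaks of frozen tumor material whereas the growth text and sample labels name the cell line. The table holds no messenger RNA, so the level of ELOVL5 itself was not checked here.

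In the body the C19MC cluster is best known from the placenta, where it is imprinted and read from the paternal copy, and from pluripotent stem cells. Its hairpins arose by repeated duplication among Alu elements, and many mature products therefore share all or nearly all of their sequence. A microRNA recognises its targets mainly through the seed, bases 2 to 8 from the 5′ end, so products with one seed are treated as a family.

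On GRCh38 (GENCODE release 29) all 46 hairpins were placed on the plus strand of chromosome 19, from MIR512-1, which starts at 53666679, to MIR519A2, which ends at 53762430, a span of 95.8 kb. MIR519A2 overlaps an exon of the long noncoding RNA AC011453.1. The other hairpins overlap no annotated same-strand gene other than microRNAs in that release. RefSeq (GRCh38.p14) gave mature sequences for 64 of the 67 names, and these 64 names hold only 54 distinct sequences.

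The sequences of the members with at least 20 counts over both libraries are shown because those members held 89.0% of the C19MC counts in shELOVL5 and 96.0% in shLuc, with the seed in capitals. The RefSeq table used has no entry for hsa-miR-522-3p.
hsa-miR-1283: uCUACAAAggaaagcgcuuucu
hsa-miR-516a-5p: uUCUCGAGgaaagaagcacuuuc
hsa-miR-519a-5p, also hsa-miR-518e-5p, hsa-miR-519b-5p, hsa-miR-519c-5p, hsa-miR-522-5p and hsa-miR-523-5p: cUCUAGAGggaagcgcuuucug
hsa-miR-516b-5p: aUCUGGAGguaagaagcacuuu
hsa-miR-519a-3p: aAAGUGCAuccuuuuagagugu
hsa-miR-512-3p: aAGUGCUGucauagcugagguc
The 6 printed sequences have 6 different seeds, so the detected part of the cluster is not 1 seed family.

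C19MC was a minor component of both libraries, and its summed counts were higher in shELOVL5. Over the 67 names there were 908 counts in shELOVL5, or 133 per 1000000 of all 6811811 microRNA counts (exact Clopper-Pearson 95% interval 125 to 142). In shLuc there were 571 counts, or 80.3 per 1000000 of 7109272 (73.9 to 87.2). After scaling with TMM factors the ratio of shELOVL5 over shLuc was 1.62 (1.46 to 1.80). Names with the same sequence can be given the same reads. With each distinct sequence counted once, at its highest value, the sums were 110.5 and 68.2 per 1000000 and the ratio was 1.58 (1.41 to 1.77). These intervals cover counting error only. Since each condition was sequenced once, cultures cannot be compared with each other and no difference was tested. Less expression per cell and fewer expressing cells cannot be told apart in such bulk libraries.

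Of the 67 names, 46 had at least 1 count in either library, 41 in shELOVL5 and 25 in shLuc. Over all 2656 names ranked by counts, names at 0 counts began at rank 1247 in shELOVL5 and at rank 1191 in shLuc. A level of 10 counts was reached by 13 names in shELOVL5 and 10 in shLuc, of 567 and 562 names in the whole table. Both the 13 and the 10 include all 6 names of the sequence of hsa-miR-519a-5p, so they hold fewer distinct sequences. The remaining 21 names had 0 counts in both libraries. With 0 counts seen, up to 3 remain possible, which is 0.435 counts per 1000000 scaled counts (CPM) for shELOVL5 and 0.427 CPM for shLuc.

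The most abundant product was hsa-miR-522-3p, known in cancer as a microRNA carried in exosomes. The shELOVL5 library held 309 counts of it (44.8 CPM) and the shLuc library 246 (35.0 CPM), for a ratio of 1.28 (1.08 to 1.52). This placed it at rank 204 of all mature names in shELOVL5 and rank 215 in shLuc. Next was hsa-miR-1283, made from a pair of hairpins, with 141 counts in shELOVL5 and 97 in shLuc, a ratio of 1.48 (1.14 to 1.94). hsa-miR-516a-5p, a placental microRNA, had 99 and 56 counts, a ratio of 1.80 (1.28 to 2.54). For these 3 the counting interval lay above 1, and shELOVL5 was the higher library each time. The 4 most abundant names, these and hsa-miR-519a-5p, held 67.4% of the C19MC counts in shELOVL5 and 77.6% in shLuc.

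One 5p sequence of the cluster is shared by 6 names. hsa-miR-519a-5p had 63 counts in shELOVL5 and 44 in shLuc, a ratio of 1.46 (0.976 to 2.19). The other 5 names of that sequence, hsa-miR-518e-5p, hsa-miR-519b-5p, hsa-miR-519c-5p, hsa-miR-522-5p and hsa-miR-523-5p, each had 27 and 16 counts, a ratio of 1.72 (0.893 to 3.41). Their equal values are those of names given the same reads, so they are not 5 measurements. Both intervals include 1. The hairpins around the shared sequence are shown because they carry the only bases by which the 6 genes differ there, with the mature sequence in capitals and 6 bases on each side.
MIR519A1: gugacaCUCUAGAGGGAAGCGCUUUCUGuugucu
MIR522: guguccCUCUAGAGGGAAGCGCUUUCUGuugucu
MIR518E: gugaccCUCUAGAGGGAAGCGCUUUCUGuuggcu
MIR519B, also MIR519C and MIR523: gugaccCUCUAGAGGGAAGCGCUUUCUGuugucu
Counted from the first base of the window, MIR519A1 differs from MIR519B by C6A, the base just before the mature sequence. MIR522 differs by A4U and MIR518E by U32G. Only MIR519A1 has a higher count than the rest, and the counting program's treatment of longer or shared reads is not given in the sources used here.

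Products that differ by a single base had separate counts. The next pair, chosen after the values were seen, has the differing base in capitals.
hsa-miR-519a-5p: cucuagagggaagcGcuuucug
hsa-miR-526a-5p, also hsa-miR-518d-5p and hsa-miR-520c-5p: cucuagagggaagcAcuuucug
From base 1 at the 5′ end the difference is G15A. hsa-miR-519a-5p had 63 and 44 counts, and hsa-miR-526a-5p had 3 counts in shELOVL5 and 0 in shLuc. In the same way hsa-miR-517a-3p, known from placental exosomes, and its sequence twin hsa-miR-517b-3p were listed at 8 and 1 counts each, whereas hsa-miR-517c-3p, which differs by C12U, had 0 in both.

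**Figure D1:**
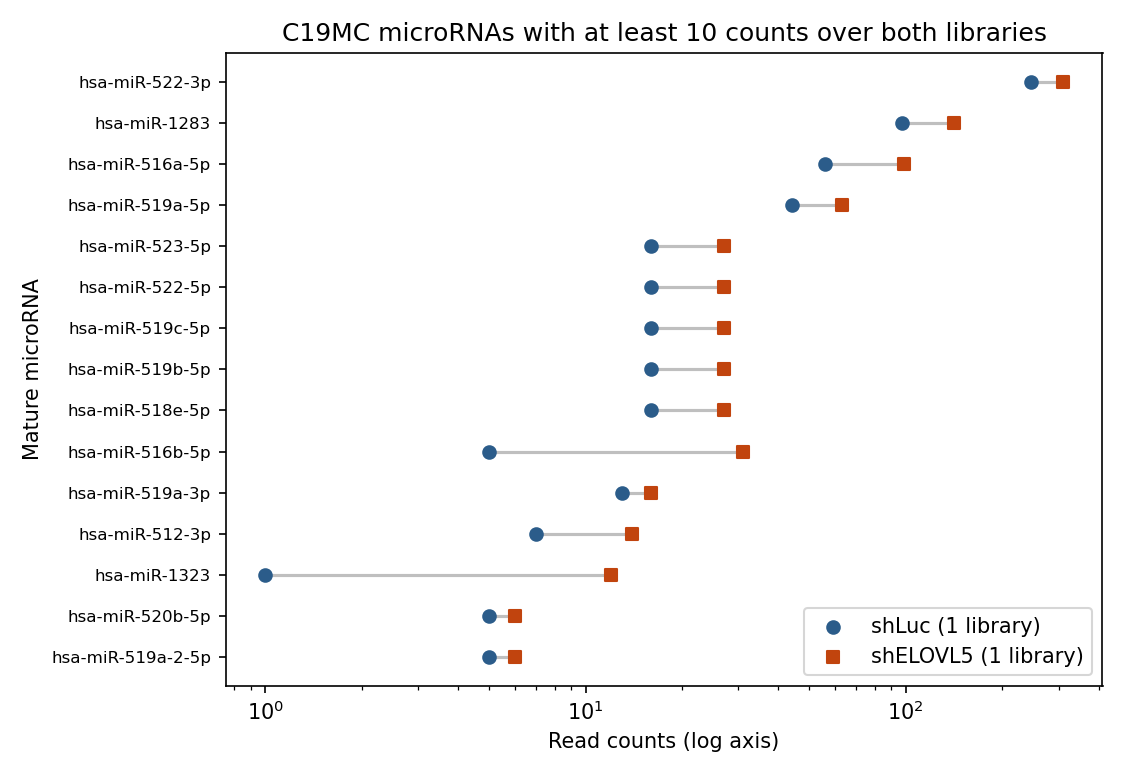
Read counts on a log axis of the 15 C19MC microRNAs that reached 10 counts over both libraries, with circles for shLuc and squares for shELOVL5 (1 library each). In all 15 the square lies to the right, most widely for hsa-miR-1323 (12 against 1) and hsa-miR-516b-5p (31 against 5), and the 5 names with 27 and 16 counts share a sequence.

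The widest difference among members with at least 20 counts was in hsa-miR-516b-5p, a placental product made from a pair of hairpins. It had 31 counts in shELOVL5 and 5 in shLuc, a ratio of 6.31 (2.43 to 20.8). It was listed with 31 and 5 counts under mir-516b-1 and with 27 and 2 under mir-516b-2. Both lines carry the same mature sequence and may hold the same reads, so they are not separate measurements. Of the 562 microRNAs that reached 20 counts over both libraries, 6 had a higher ratio. hsa-miR-512-3p, from the first hairpins of the cluster, had 14 and 7 counts, a ratio of 2.04 (0.769 to 5.96). The small 3p product hsa-miR-519a-3p, of a family known to repress the RNA-binding protein HuR, had 16 and 13 counts, a ratio of 1.25 (0.565 to 2.83). Below 20 counts, hsa-miR-1323 had 12 counts in shELOVL5 and 1 in shLuc, and hsa-miR-519a-2-5p and hsa-miR-520b-5p, which share a sequence, each had 6 and 5.

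By a rule of at least 2-fold among microRNAs with at least 20 counts, 2 of the 12 C19MC names passing that filter were higher in shELOVL5 and 0 were lower. The 2 were hsa-miR-516b-5p and hsa-miR-512-3p. Of the 562 microRNAs of the full set, 4.98% were 2-fold higher and 2.67% were 2-fold lower. Among the 390 with 20 to 1000 counts, the range in which the members lie, these shares were 6.92% and 3.85%. With so few members the count of 2 is not read as different from the background, and it depended on the limits set. It was 0 with at least 50 counts, 1 with 1 CPM added to both values or when the whole counting interval had to pass 2-fold, and 8 with a 1.5-fold rule or when 1 count in each library sufficed. The 8 of the 1.5-fold rule include the 5 names with 27 and 16 counts, which repeat the same reads. Shares of all microRNAs under these other limits were not computed, so neither count of 8 is read as a result. All 12 names, or 7 of 7 distinct sequences, had a ratio above 1, against 51.4% of the 562 microRNAs and 55.4% of those with 20 to 1000 counts. The median log2 ratio was 0.57 over the 7 distinct sequences and 0.78 over the 12 names, of which 5 repeat the same reads. It was 0.023 over all microRNAs with at least 20 counts and 0.071 over those with 20 to 1000 counts, with quartiles of -0.23 and 0.46 in the latter. These members were selected by their counts summed over both libraries, and hsa-miR-516b-5p, with 31 and 5 counts, passed through its shELOVL5 counts. Members of 1 cluster may also not vary independently. Their median and their share above 1 therefore describe them and do not stand for the 67 names. Neither was tested against the background.

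**Figure D2:**
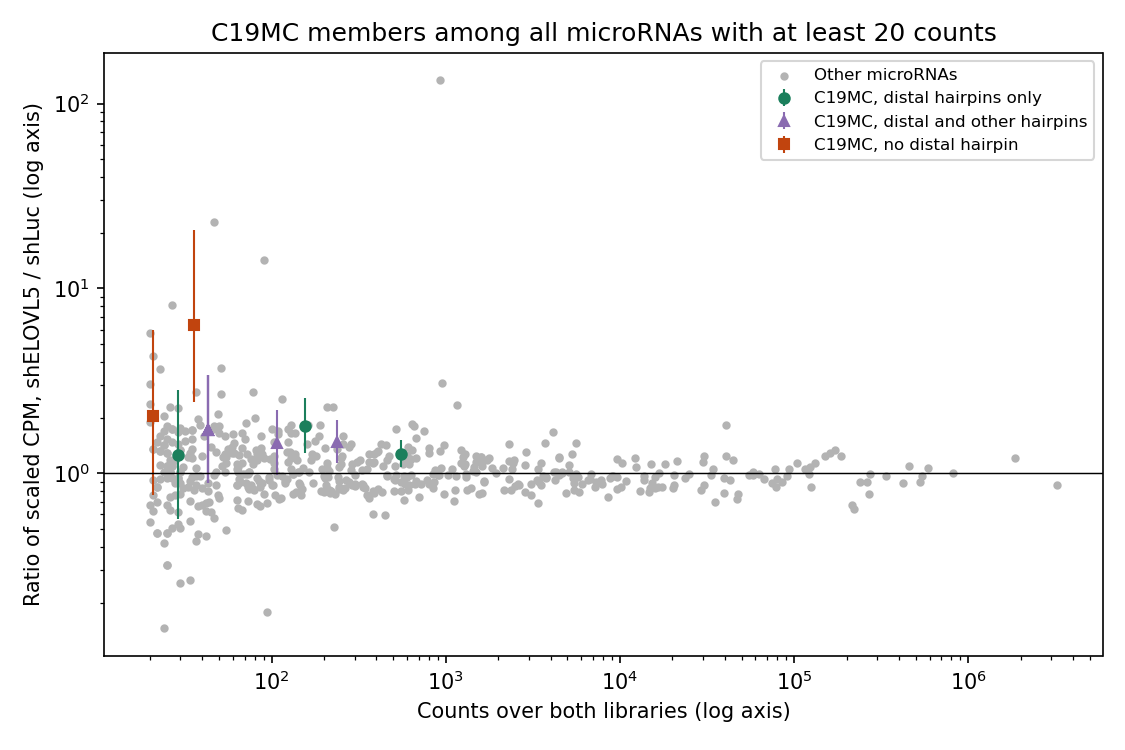
Ratio of scaled CPM, shELOVL5 over shLuc, against the counts over both libraries, both on log axes, for microRNAs with at least 20 counts and counts in both libraries. C19MC members are coloured by where their hairpins lie, with 95% counting intervals. All 12 lie above 1, and hsa-miR-516b-5p at 6.31 is the farthest from it.

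The counts were spread unevenly along the cluster. The last 7 hairpins, from MIR522 (chr19:53751211-53751297) to MIR519A2 (chr19:53762344-53762430), occupy 11.2 kb at the distal end, and 39 hairpins lie before them. This division was chosen after the values were seen. Names were put in 3 groups by whether their sequence comes from these distal hairpins only, from distal and other hairpins, or from no distal hairpin. Names without a RefSeq sequence, among them hsa-miR-522-3p and hsa-miR-527, were placed by hairpin name alone. A copy of their sequence under another name would have been missed. On the near side of the border stands MIR521-1, whose product hsa-miR-521 had 0 counts in shELOVL5 and 2 in shLuc, and just inside it stands MIR522 with the most abundant product of the cluster. The 4 names from distal hairpins only, hsa-miR-522-3p, hsa-miR-516a-5p, hsa-miR-519a-3p and hsa-miR-527 (0 counts in both), held 424 counts in shELOVL5 and 315 in shLuc. That was 56.3% and 64.9% of the distinct-sequence counts. Most of it was 1 product, hsa-miR-522-3p, with 309 and 246 counts, at whose hairpin the border was set. Sequences from both kinds of hairpin, chiefly hsa-miR-1283 and the shared 5p sequence of hsa-miR-519a-5p, held 210 and 146 counts. The hairpin they came from cannot be told from the mature sequence.

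**Figure D3:**
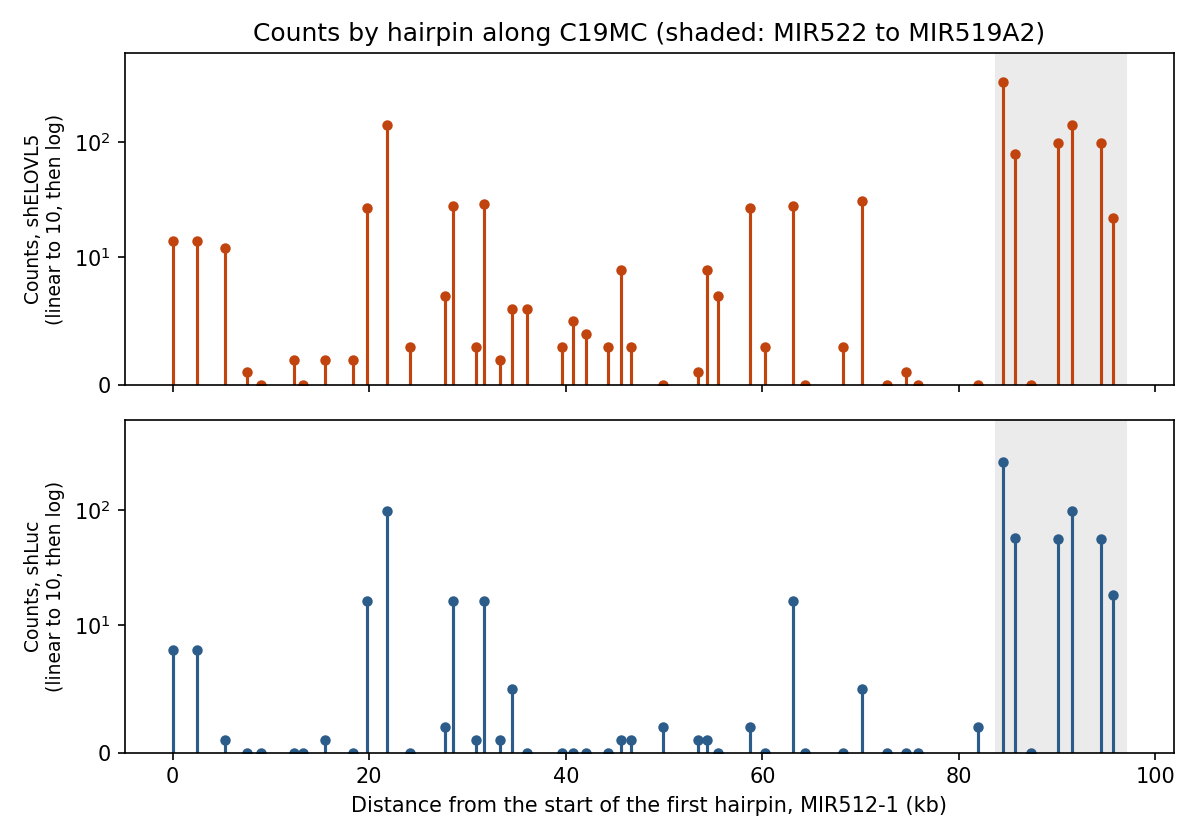
Counts of both arms of each of the 46 hairpins, on an axis that is linear to 10 and logarithmic above, against the distance in kb from the start of MIR512-1, for shELOVL5 (upper) and shLuc (lower). A product of several hairpins is drawn at each of them, as for hsa-miR-1283 (141 and 97 counts). The shaded distal 11.2 kb holds MIR522 with 336 and 262 counts, and the products found at no distal hairpin sum to 133 counts in shELOVL5 and 25 in shLuc.

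The difference between the libraries was wider outside the distal end. The 49 distinct sequences with no distal hairpin had 119 counts in shELOVL5 and 24 in shLuc, a ratio of 5.05 (3.23 to 8.19). In shELOVL5 they held 15.8% of the distinct-sequence counts of the cluster, and in shLuc 4.95%. The sequences from distal hairpins only had a ratio of 1.37 (1.18 to 1.59), and those from both kinds of hairpin 1.46 (1.18 to 1.82). The counting interval of the first group did not overlap those of the other groups. The groups were drawn after the values were seen and the intervals cover counting error only, so this is no test of position. Most names of the first group were also rare, so position and abundance cannot be told apart. Without hsa-miR-516b-5p, its most abundant member, the 52 names with no distal hairpin stood at 5.19, against 5.42 with it. Whether this difference between ends of the cluster would recur in further cultures was not tested.

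**Figure D4:**
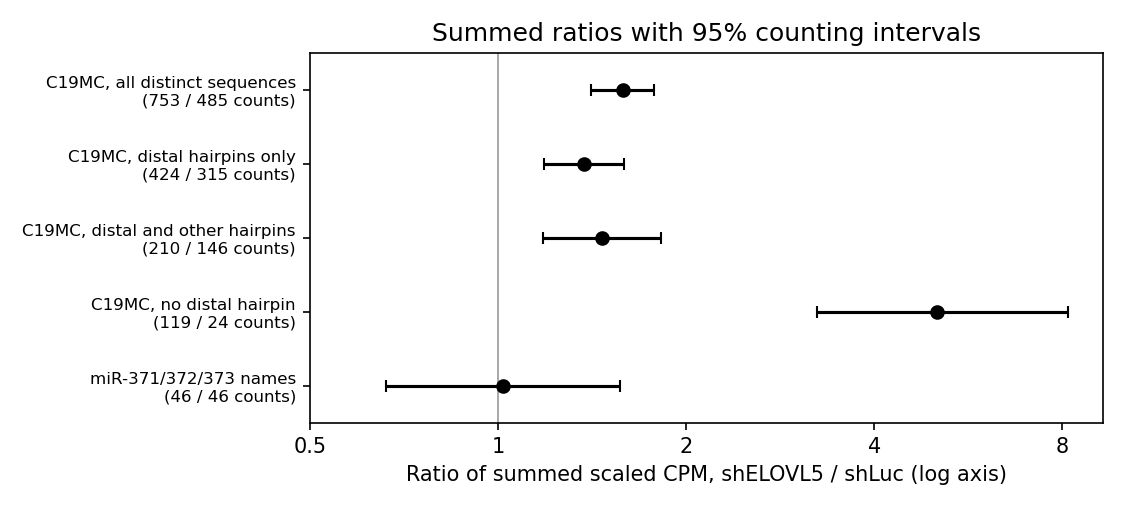
Ratio of summed scaled CPM, shELOVL5 over shLuc, on a log axis with 95% counting intervals, for the distinct C19MC sequences, their 3 positional groups and the names of the neighbouring cluster of miR-371 to miR-373. The group with no distal hairpin stands at 5.05, the other C19MC groups at 1.37 and 1.46, and the neighbouring cluster at 1.02.

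The rare members were nearly the same names as those with counts in the group with no distal hairpin. Their direction is therefore no further support for the ratio of that group. Among them only hsa-miR-519a-2-5p and hsa-miR-520b-5p have a sequence found at a distal hairpin. Many entered this set through shELOVL5 counts alone. There were 34 names with 1 to 19 counts over both libraries, with sums of 100 counts in shELOVL5 and 23 in shLuc. More counts were found in shELOVL5 for 29 of them and in shLuc for 5. With each distinct sequence taken once, these were 25 and 5 of 30. Among all 850 microRNAs with 1 to 19 counts, 45.4% had more counts in shELOVL5 and 41.5% had more in shLuc. Counts in shELOVL5 and 0 in shLuc were found for 21 of the 34 names, against a background of 25.9%, and the reverse for 5, against 19.5%. With each distinct sequence taken once, these were 19 and 5 of 30. Of the 21 names, 19 had at most 3 counts, which a count of 0 allows, so no single one of those 19 names differed detectably at this depth. The others were hsa-miR-518b with 6 counts and hsa-miR-520g-3p with 4. The counting interval of hsa-miR-520g-3p also included 1. That of hsa-miR-518b, picked from the 21 after the values were seen, lay above 1. Over the 31 names with 1 to 9 counts the highest value was 8 in shELOVL5 and 2 in shLuc.

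Which arm held more counts differed between hairpins of the cluster. Both arms are named for 37 hairpins, of which 33 had counts. The 5p arm had more counts in 21, the 3p arm in 10, and the arms were equal in 2. Many of these calls rest on a few reads and several repeat 1 shared 5p sequence, so the tally does not show an arm preference. Reads of a sequence made by several hairpins count at each of them here. At MIR522 the 3p arm held 92.0% of the counts in shELOVL5 (exact binomial 95% interval 88.5 to 94.6%) and 93.9% in shLuc (90.3 to 96.5%), although its 5p sequence is shared with other hairpins. At MIR519A1 the 3p arm held 20.3% (12.0 to 30.8%) in shELOVL5 and 22.8% (12.7 to 35.8%) in shLuc. At MIR519A2, which makes the same 3p sequence and is given the same 16 and 13 counts of it, the share was 72.7% (49.8 to 89.3%) and 72.2% (46.5 to 90.3%). The 3p reads cannot be divided between these hairpins, and both 5p sequences also occur at other hairpins, so these shares do not show the arm balance of either one. The intervals of the libraries overlapped at all 3 hairpins. hsa-miR-516a-3p and hsa-miR-516b-3p had 0 counts in both libraries. Over the distinct sequences, 5p arms summed to 227 and 116 counts, a ratio of 1.99 (1.59 to 2.51), and 3p arms had a ratio of 1.39 (1.18 to 1.63). The 3p sum, with 375 and 270 counts over all names, consists mainly of the 309 and 246 counts of hsa-miR-522-3p, and the intervals of the arms overlapped.

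The cluster is known for 3p products whose seeds match those of the pluripotency and growth-promoting families, and these were nearly missing here. The following are shown because they share a seed, in capitals, with C19MC products.
hsa-miR-519d-3p: cAAAGUGCcucccuuuagagug
hsa-miR-17-5p: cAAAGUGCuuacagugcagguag
hsa-miR-520c-3p: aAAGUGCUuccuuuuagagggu
hsa-miR-372-3p: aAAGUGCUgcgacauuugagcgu
The C19MC names with seed AAAGUGC, hsa-miR-519d-3p and hsa-miR-526b-3p, had 3 counts in shELOVL5 and 0 in shLuc together. The 6 microRNAs elsewhere with that seed, led by hsa-miR-93-5p, hsa-miR-17-5p and hsa-miR-20a-5p of the growth-promoting clusters, had 87971 and 83273 counts. The 5 C19MC names with seed AAGUGCU, from hsa-miR-520a-3p to hsa-miR-520e-3p, had 5 counts in shELOVL5 and 0 in shLuc. The 7 microRNAs elsewhere with that seed, led by hsa-miR-372-3p, hsa-miR-373-3p and hsa-miR-302b-3p, had 45 and 42. The C19MC share of each seed was therefore smaller than that of its relatives elsewhere in both libraries. hsa-miR-1323 shares the seed CAAAACU with hsa-miR-548o-3p, which had 155 and 189 counts against its own 12 and 1. For the seeds of hsa-miR-1283, hsa-miR-516a-5p, hsa-miR-516b-5p and hsa-miR-519a-5p, no microRNA outside the cluster with a RefSeq sequence had a match.

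Other microRNAs of placenta and stem cells were compared with the cluster. The cluster of miR-371, miR-372 and miR-373, which follows C19MC on chromosome 19 and is known from embryonic stem cells, had 46 counts in each library over its 8 names, a ratio of 1.02 (0.662 to 1.57). Its main product hsa-miR-372-3p had 37 counts in both. The interval of this neighbour overlapped that of the C19MC sum and lay below that of the C19MC sequences with no distal hairpin. That last group was drawn after the values were seen. The 12 names of miR-302 and miR-367, markers of pluripotent cells, had 4 counts in shELOVL5 and 1 in shLuc. The 92 names of the imprinted 14q32 cluster, also known from placenta, had 5 and 3 counts. C19MC was thus the most abundant of these 4 groups in both libraries.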

How the data were processed

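Small RNA of MDA-MB-231 cells was sequenced with 1 library for shELOVL5 and 1 for shLuc. Per the labels' protocols a NEBNext kit for small RNA was used, and no molecular identifiers are described, so PCR copies may be counted again. The values are raw read counts, as the authors deposited them. The submitters' processing notes list Bowtie 1.1.1, cutadapt 2.10 and FastQC 0.11.9. For the counting program, microRNA release, build and shared reads, nothing is stated (not given in the sources used here). For each mature name and library the highest precursor line was kept (2886 lines, 2656 names, of which 83 lines and 67 names are C19MC). Totals were 6811811 and 7109272 counts, with TMM factors of 1.01 and 0.988 from edgeR 4.0.16 (R 4.3.3). Ratios carry 95% Clopper-Pearson counting intervals (scipy 1.17.1) and are printed from 20 counts. Most named members have at least 10 counts over both libraries, or share a sequence or hairpin with one. The exceptions were named after their values were seen. They are hsa-miR-518b, hsa-miR-520g-3p, hsa-miR-517a-3p, hsa-miR-517b-3p, hsa-miR-517c-3p, hsa-miR-518d-5p, hsa-miR-520c-5p, hsa-miR-526a-5p, hsa-miR-521, hsa-miR-527 and the members of the seed families. Sequences come from RefSeq (GRCh38.p14) and positions from GENCODE 29 (GRCh38), the same for 43 of 46 hairpins in both. The ratio and interval code was tested on simulated counts. The members and lists were chosen with earlier results of these data known. Alternatives tried were size factors of DESeq2 1.42.0, scaling by totals, sums over precursor lines, distinct sequences, other filters and folds, and thinning.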

Additional observations from a re-analysis of the deposited data

How the results depend on the processing

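No paired analysis was possible because there was a single library of either kind, and none could be left out. Every summed C19MC ratio stayed above 1 under the alternatives run. Without hsa-miR-522-3p the ratio over all names was 1.88, against 1.62. That over names from distal hairpins only was then 1.70, against 1.37, an alternative chosen after seeing the data. This most abundant product had a lower ratio of 1.28, so the size of both summed ratios depended on it. The median log2 ratio of the members, 0.78, was 0.82 with total count scaling, 0.75 with DESeq2 size factors, 0.57 with each distinct sequence once, 0.55 with at least 50 counts and 0.58 with 1 CPM added. The 2 members at least 2-fold higher became 0 with at least 50 counts, 1 with 1 CPM added or with the whole interval beyond 2-fold, and 8 with a 1.5-fold rule or when 1 count in each library sufficed. The count of members at least 2-fold lower was 0 under each of these. Both counts of 8 include names that repeat the same reads, and shares of all microRNAs under these other limits were not computed. The DESeq2 size factors were 1 and 1. Depth limits the 55 names below 20 counts, and without replicates every difference stays untested.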
